A study of Arabidopsis thaliana with 12 samples.

Results

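The chloroplast NDH complex is a thylakoid protein assembly related to respiratory complex I. It passes electrons from ferredoxin back to plastoquinone, and so serves cyclic electron flow around photosystem I and chlororespiration. Its subunits come from plastid and nuclear genes, and its formation also needs nuclear factors that edit plastid ndh transcripts or help to put the complex together. The genes described are NdhS, NdhN, CRR21, CRR41 and PIFI of Arabidopsis thaliana, 5 nuclear genes of this machinery, each on 1 feature that the platform annotation lists with exactly 1 gene. They are 5 of the 3438 rows tested, after features of the same gene had been averaged. NdhS (AT4G23890) and NdhN (AT5G58260) encode structural subunits, and NdhS, also called CRR31, takes part in the docking of ferredoxin. CRR21 (AT5G55740) is a pentatricopeptide repeat protein that acts in editing of the plastid ndhD transcript. CRR41 (AT1G51100) is needed for assembly of the stromal arm of the complex. PIFI (AT3G15840) was named for the rise in chlorophyll fluorescence after illumination ends, a readout of NDH activity that its loss impairs, and it is not a structural subunit.

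Total RNA was profiled from wild-type plants of the Landsberg ecotype after 48 hours under 200 µE of red light, called red200 here, and after 48 hours under 20 µE of white light, called white20. Light colour and light level changed together, so the effects of colour and level cannot be told apart. Each light has 6 arrays, and the labels name neither the organ nor the plants or RNA extracts behind each array. Fewer cells of a type and less RNA per cell cannot be told apart in such material.

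Arrays 1 and 2, 3 and 4, and 5 and 6 of each light were near-duplicates, with rank correlations of 0.91 to 0.989. Arrays of the same light from different pairs correlated at 0.641 to 0.821. Each such pair was averaged and counted as 1 sample, which gives 3 samples per light. What the spread between them contains is not stated, and p-values measure only this spread, which may be technical. The median intensity of an array ranged from 0.233 to 0.471 on the deposited scale, and 11.4% to 17% of the features of an array were listed at 0. Intensities were therefore quantile-normalized over the 12 arrays, and levels below are these normalized intensities in arbitrary units unless the deposited scale is named. Differences are red200 minus white20 on the log2(intensity + 0.054) scale, which understates the change of dim features. The number of arrays limits the precision.

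None of the 5 NDH genes passed an adjusted p of 0.05 between red200 and white20 in limma, and 0 of 5 had an unadjusted p under 0.05. The same thresholds were passed by 0.116% and 13.8% of the 3438 rows. The fitted differences were positive for 2 members and negative for 3, with a median of -0.14, beside a median of -0.01 over all rows. The median size of a difference, sign aside, was 0.15 for the members and 0.46 for all rows. The median SE was 0.26 for the members and 0.44 for all rows. The members include NdhN and CRR41, listed at 0 on most arrays, whose differences depend on the pseudocount. All rows include such features as well. The pair means of the lights overlapped for all 5 members, and they did not overlap for 17.5% of all rows. With only 5 members this is no contrast. For CRR41 the overlap was a tie at 0 between the red200 pairs and white20 pair 2. NdhN was the 1 member of 5 whose difference kept its sign over the 3 pairs, as did 37.8% of all rows.

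**Figure D1:**
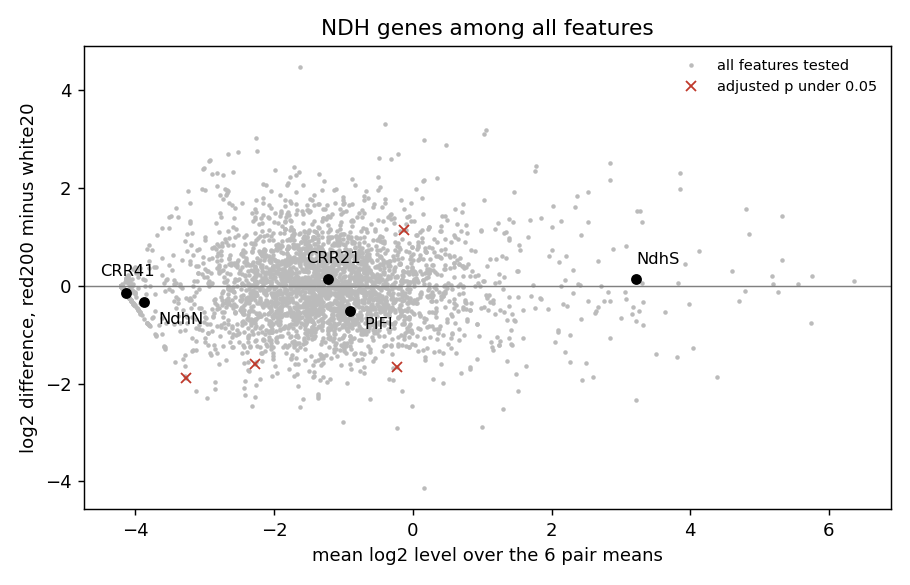
Each point is 1 row, with its mean log2 level over the 6 pair means on the x axis and its log2 difference, red200 minus white20, on the y axis. The 5 NDH genes (black) lie between -0.51 and 0.15, and the 4 crosses mark the rows with an adjusted p under 0.05, none of which is an NDH gene.

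The 2 structural subunits stood at opposite ends of the intensity scale. NdhS was bright on every array, at the 99th percentile of mean log2 level among all rows, and NdhN was close to 0 on nearly every array, at percentile 11.8. The 3 other factors were likewise spread, with PIFI at percentile 68.4, CRR21 at 57.4 and CRR41 at 9.02. These percentiles describe how bright a feature was. Features differ in length and in how well they bind their target, so the percentiles do not rank the genes by transcript abundance.

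NdhS had normalized intensities of 8.55, 8.96, 11.5, 11.5, 8.96 and 9.37 on red200 arrays 1 to 6, against 5.52, 5.92, 9.21, 10.9, 12.7 and 10.9 on white20 arrays 1 to 6. The red200 arrays lay inside the range of the white20 arrays, whose lowest values were arrays 1 and 2 and whose highest was array 5. The means were 9.8 ± 1.47 in red200 and 9.2 ± 3.14 in white20 (SD, n = 3 pair means each). The difference of 0.15 ± 0.31 (SE, limma adjusted p = 0.918) had a 95% interval of -0.67 to 0.97. As folds of red200 over white20 its ends are 0.627 and 1.96. The pair differences took both signs, at 0.61, 0.20 and -0.36. NdhS spread more between white20 pairs than between red200 pairs, as the pair means covered 0.39 log2 units in red200 and 1.04 in white20. Near-duplicate arrays differed by a median of 0.08 log2 units for this gene. The difference was -0.16 without white20 arrays 1 and 2, 0.03 without red200 arrays 3 and 4, and 0.02 with array weights. It was larger on the deposited scale (0.54), without white20 arrays 5 and 6 (0.36) and without arrays 5 and 6 of both lights (0.40).

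NdhN was listed at 0 on 5 of 6 red200 arrays and on 3 of 6 white20 arrays. The only red200 array above 0 was array 6, with a deposited intensity of 0.00466. White20 arrays 1, 4 and 5 had deposited intensities of 0.00154, 0.0192 and 0.248. The highest of these, array 5, belonged to a near-duplicate pair whose other array was listed at 0, so the signal was not repeated within the pair. In normalized intensities the means were 0.00856 ± 0.0148 in red200 and 0.0504 ± 0.0821 in white20 (SD, n = 3 pair means each), in each light with an SD larger than the mean. Normalization reversed the order of 2 arrays near the floor. Red200 array 6, the whole source of the red200 mean, became 0.0514, and white20 array 4 became 0.0113. The pair differences were -0.01, -0.14 and -0.85. The fitted difference of -0.33 ± 0.42 (SE, limma adjusted p = 0.805) was 0.11 without white20 array 5, -0.78 without white20 array 6 and 0.09 without both. It was -0.07 without arrays 5 and 6 of both lights, -0.17 with the pseudocount multiplied by 4 and -0.53 with it divided by 4. On the deposited scale it was -0.47, and with arrays scaled to the same median -0.51. An intensity of 0 on this array is no statement that NdhN was not expressed. Of all features, 12.9% were listed at 0 on at least 8 of the 12 arrays, as NdhN was.

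CRR21, the editing factor, was above 0 on all 12 arrays, and its pair means covered 0.36 log2 units in red200 and 0.06 in white20. Its normalized intensities were 0.36, 0.352, 0.352, 0.379, 0.516 and 0.435 on red200 arrays 1 to 6, against 0.38, 0.34, 0.288, 0.407, 0.392 and 0.332 on white20 arrays 1 to 6. Red200 arrays 5 and 6 exceeded every white20 array, and the other 4 red200 arrays lay within the white20 range. The means were 0.399 ± 0.0664 in red200 and 0.356 ± 0.00781 in white20 (SD, n = 3 pair means each). The difference was 0.14 ± 0.12 (SE, limma adjusted p = 0.721), with a 95% interval of -0.19 to 0.46. As folds of red200 over white20 on this scale its ends are 0.879 and 1.38. The pair differences were -0.01, 0.08 and 0.35. Without red200 arrays 5 and 6 the difference was 0.02, and without arrays 5 and 6 of both lights 0.03.

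For CRR21 the overlap of the lights depended on how the arrays were scaled. On the deposited scale its intensities were 0.47, 0.461, 0.502, 0.558, 0.45 and 0.358 on red200 arrays 1 to 6, against 0.27, 0.25, 0.266, 0.355, 0.341 and 0.283 on white20 arrays 1 to 6. All 6 red200 arrays then lay above all 6 white20 arrays, as they did for 9.6% of all rows on that scale and for 4.71% after normalization. The deposited difference was 0.58 ± 0.13 (SE, limma adjusted p = 0.151). None of the 5 members passed the adjusted threshold on that scale, which 0.785% of all rows did. The median difference of all rows was 0.20 on the deposited scale, which leaves 0.38 for CRR21 relative to it. Scaling the arrays to the same median gave 0.21 for CRR21, with the median of all rows at -0.02.

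**Figure D2:**
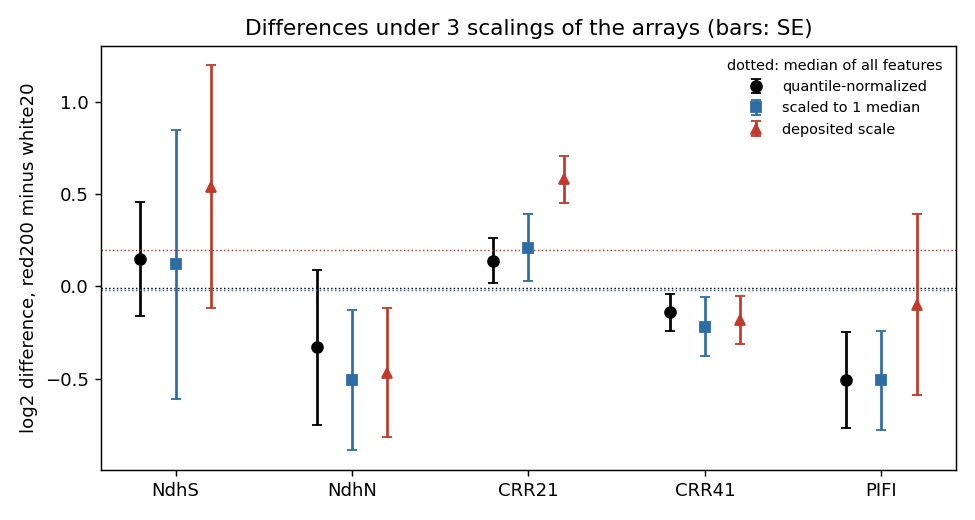
Log2 differences, red200 minus white20, of the 5 NDH genes under 3 scalings of the arrays, with SE as bars and dotted lines at the median of all rows. CRR21 moves from 0.14 after quantile normalization to 0.58 on the deposited scale, where the median of all rows is 0.20, and PIFI from -0.51 to -0.10.

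CRR41, the assembly factor, was listed at 0 on all 6 red200 arrays and on 4 of 6 white20 arrays. The 2 arrays above 0 were white20 array 1, with a deposited intensity of 0.0424, and white20 array 6, with 0.0097. Neither value was repeated on the near-duplicate of its array, which was listed at 0. The difference of -0.14 ± 0.10 (SE, limma adjusted p = 0.613) rests on these 2 arrays and on the pseudocount, being -0.04 with the pseudocount multiplied by 4 and -0.41 with it divided by 4. No fold is given against a light in which every array was at 0.

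PIFI had the largest fitted difference of the 5. Its normalized intensities were 0.5, 0.634, 0.35, 0.428, 0.311 and 0.244 on red200 arrays 1 to 6, against 0.574, 0.551, 0.479, 0.596, 0.792 and 0.544 on white20 arrays 1 to 6. Red200 arrays 3, 4, 5 and 6 lay below every white20 array, and red200 arrays 1 and 2 lay within the white20 range. The means were 0.411 ± 0.146 in red200 and 0.589 ± 0.0691 in white20 (SD, n = 3 pair means each). The difference was -0.51 ± 0.26 (SE, limma adjusted p = 0.483), with a 95% interval of -1.18 to 0.17. As folds of red200 over white20 on this scale its ends are 0.44 and 1.12. The pair differences were 0.00, -0.42 and -1.11, so that most of the fitted difference came from arrays 5 and 6. Without these arrays of both lights it was -0.21, with array weights -0.26 and on the deposited scale -0.10. On the deposited scale only 2 red200 arrays lay below every white20 array, and 1 lay above every white20 array. The median deposited intensity was 0.566 in red200 and 0.447 in white20.

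**Figure D3:**
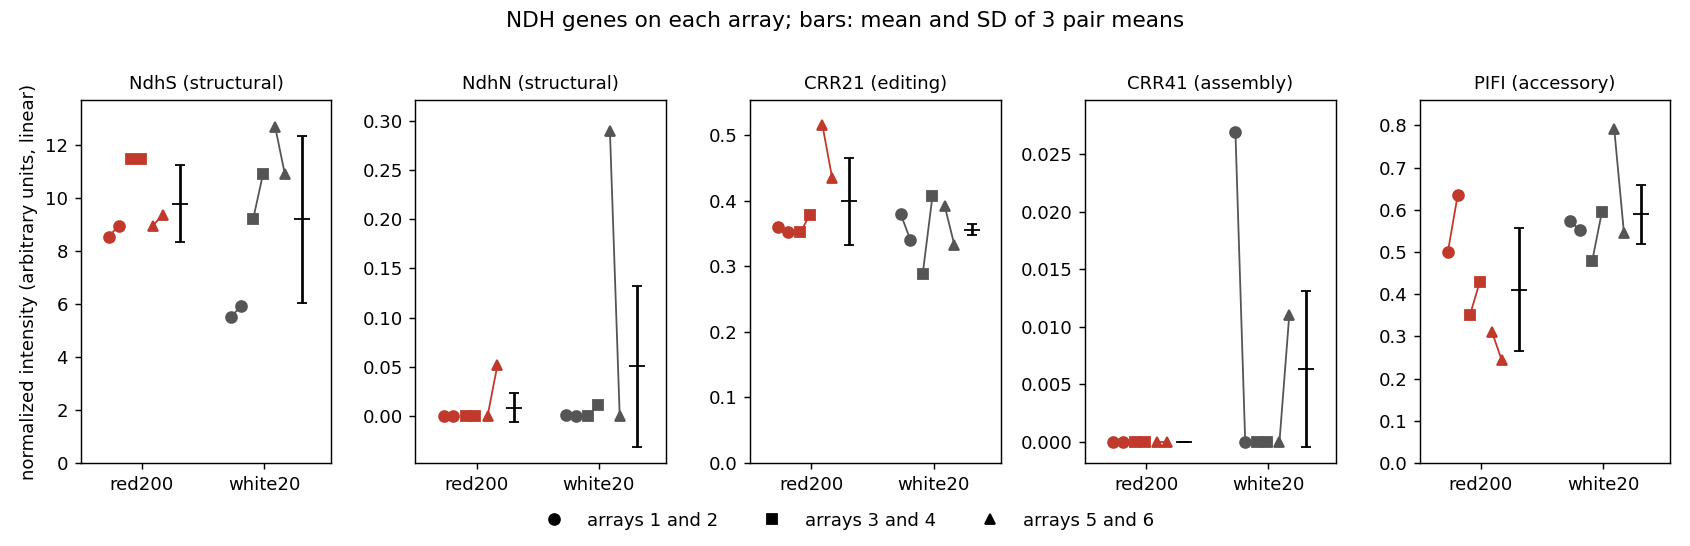
Normalized intensity (y axis, linear, arbitrary units, a scale of its own for each gene) of the 5 NDH genes on the 6 red200 and 6 white20 arrays. Joined symbols are near-duplicate arrays, and bars are the mean and SD of 3 pair means. NdhS and CRR21 overlap between the lights, NdhN and CRR41 are at or near 0 on most arrays, and 4 of the 6 red200 arrays lie below all white20 arrays for PIFI.

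Set by role, the structural subunits and the other factors did not separate in their response. The mean difference was -0.09 over NdhS and NdhN and -0.17 over CRR21, CRR41 and PIFI. Structural minus other was 0.08 ± 0.36 (SD, n = 3 pairs), with 0.40, 0.14 and -0.31 in the 3 pairs. The members within each class lay further apart than the class means, as NdhS lay at 0.15 and NdhN at -0.33, and CRR21 at 0.14 and PIFI at -0.51. With only the members that were above 0 on all arrays, NdhS lay 0.33 ± 0.30 above the mean of CRR21 and PIFI (SD, n = 3 pairs). The values were 0.61, 0.36 and 0.02 in the 3 pairs. The pairs match the samples by number only. No test was made of these class means, since the members were chosen.

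**Figure D4:**
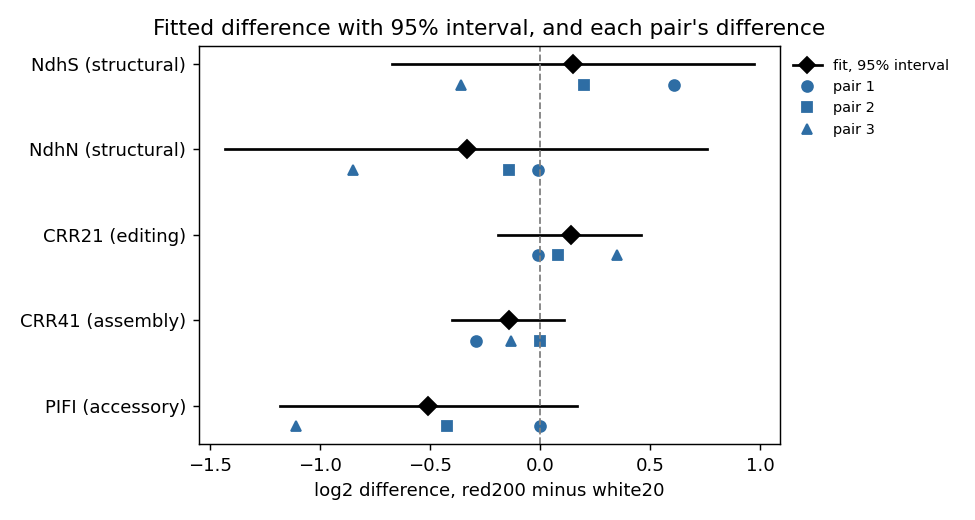
Fitted log2 difference, red200 minus white20 (diamond), with its 95% interval (line), for each NDH gene, and below it the difference in each of the 3 same-numbered pairs (blue). All 5 intervals include 0, and the NdhS pairs lie at 0.61, 0.20 and -0.36.

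With samples matched by number, a pairing that the labels do not state, the pair differences of NdhS and PIFI kept a near-constant distance. NdhS minus PIFI, as a difference of log2 levels within a sample, was 3.83, 4.71 and 4.80 in the red200 pairs and 3.23, 4.10 and 4.06 in the white20 pairs. Red200 minus white20 of this quantity was 0.61, 0.61 and 0.75 in the 3 pairs, with a mean of 0.66 ± 0.08 (SD, n = 3 pairs). The small SD holds for this matching only. Within a light the values ranged from 3.83 to 4.80 in red200 and from 3.23 to 4.10 in white20. The values of the lights overlapped, since red200 pair 1 lay below white20 pairs 2 and 3. On the deposited scale the same quantity was 0.69, 0.12 and 1.13, so the pairs were less alike there. The corresponding values for NdhS minus CRR21 were 0.62, 0.12 and -0.71, and those for CRR21 minus PIFI were -0.01, 0.49 and 1.46. These combinations were singled out after their values were seen, and no test was made of them.

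The wider NDH pathway was thinly covered by features listed with exactly 1 gene. These held 2 of 18 nuclear structural subunits, 2 of 8 assembly factors, 2 of 12 editing and processing factors and 1 of 3 photosystem I linkers and accessory factors. None of 12 plastid-encoded subunits, of 5 genes of the PGR5 route and chlororespiration, or of 4 ferredoxin and ferredoxin-NADP reductase genes had such a feature. Beside the members, this adds Cpn60beta4 and OTP85, and none of these measured genes passed the limma threshold in either direction, nor an unadjusted p of 0.05. Of 12 nuclear photosystem I subunits only PSAN was measured, and it did not pass. Markers of root (0 of 7) and of senescence (0 of 6) could not be read.

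Cpn60beta4 (AT1G26230), a chaperonin subunit needed to fold NdhH, had pair means of 0.361, 0.171 and 0.126 in red200 and 0.184, 0.135 and 0.198 in white20. Its difference of 0.19 ± 0.36 (SE, limma adjusted p = 0.903) had pair differences of 0.81, 0.24 and -0.49. It was -0.06 with arrays scaled to the same median and 0.32 on the deposited scale. The red200 pairs covered a wider range than the white20 pairs, which lay within it. OTP85 (AT2G02980), an editing factor of another ndhD site, was listed at 0 on 4 of 6 red200 arrays and on all 6 white20 arrays. PSAN, a lumenal subunit of photosystem I, the complex to which NDH is attached, differed by -0.70 ± 0.27 (SE, limma adjusted p = 0.372), and by -0.13 on the deposited scale. After normalization its arrays ran from 1.85 to 2.36 in red200 and from 2.37 to 4.91 in white20. The pair means of PSAN did not overlap, as for 17.5% of all rows, and its pair differences were -1.03, -0.13 and -0.94.

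For the 3 members above 0 on all arrays, the genes of most similar profile were sought by Pearson correlation of log2 levels over the 6 pair means, among 513 other genes above the lower quartile of level. With 6 points and 513 candidates high values are found for many profiles, and the values describe these samples only. NdhS was closest to OTP70 (r = 0.95), AT4G00590 (r = 0.937) and AT3G45770 (r = 0.923). OTP70 had 0.53, 1.35 and 0.708 in the red200 pairs and 0.0948, 0.855 and 0.766 in the white20 pairs, and like NdhS it was lowest in white20 pair 1. CRR21 was closest to AT1G16080 (r = 0.962), AT3G58570 (r = 0.938) and AT2G28660 (r = 0.931). AT1G16080 had 4.27 in red200 pair 3 and 0.193 to 0.451 in the other 5 pairs, so this likeness rests on the pair in which CRR21 was also highest. PIFI was closest to AT2G01400 (r = 0.965), AT3G13150 (r = 0.957) and AT3G13180 (r = 0.915). AT2G01400 had 0.247, 0.171 and 0.126 in the red200 pairs and 0.289, 0.282 and 0.288 in the white20 pairs. These pair means did not overlap, as for 17.5% of all rows. Its single arrays did, with red200 reaching up to 0.261 and white20 down to 0.242. The difference of AT2G01400 was -0.58 ± 0.21 (SE, limma adjusted p = 0.336). AT3G13150, with 0.317, 0.11 and 0.0732 in red200 and 0.498, 0.341 and 0.446 in white20, differed by -1.26 ± 0.43 (SE, limma adjusted p = 0.318). As for PIFI, these red200 values were lowest in pair 3.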

How the data were processed

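Single-channel array intensities of 6 red200 and 6 white20 samples were taken from the deposited table of 3439 features. How the authors arrived at these intensity values, including any background correction, floor or scaling, is not stated in the labels or the file. The highest deposited value was 100 on 7 of the 12 arrays, for a reason that is not stated either. Of the features, the platform annotation lists 692 with 1 gene, 870 with several and 1877 with none. Entrez identifiers gave current symbols from RefSeq (TAIR10.1) for 690 of the 692. No probe, transcript or protein sequence was used here.

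Intensities were quantile-normalized. A pseudocount of 0.054, the positive values' percentile 5, was added before taking log2, and levels were averaged per gene and then over arrays 1 and 2, 3 and 4, and 5 and 6. Red200 and white20 were compared in R 4.3.3 by a moderated linear model (limma 3.58.1, eBayes, 4 residual degrees of freedom, Benjamini-Hochberg adjustment over 3438 rows). The model was also run on simulated independent normal values with no floor at 0. That run had to pass only on the mean error of the fitted differences. It is no check of the p-values or of features listed at 0. Deviations from the light means gave correlations of 0.125, 0.466 and 0.376 for pair means that share a number. No such value was set beside them for pair means with different numbers. This check therefore cannot establish a pairing, and the labels state none. Pair differences match the samples by number only. The limma fit had no term for the number, so its SE, intervals and p-values are unpaired. All 5 members are named, as are the measured genes of the pathway lists and the 3 genes most like each member. Members and lists were chosen with earlier results of these data known.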

Additional observations from a re-analysis of the deposited data

Results flagged for a closer look

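For 2 of the 9 member and light combinations with any spread, a single array stood far from the other 5 of its light, and both concern NdhN. Red200 array 6 had a normalized intensity of 0.0514 (deposited 0.00466), with the other 5 red200 arrays at 0, so its gap to the next array was the whole range of the log2 levels (a share of 1). White20 array 5 had a normalized intensity of 0.29 (deposited 0.248), with a gap of 0.898 of the range. Both shares exceed Dixon's critical value at the 95% level for 6 arrays, which marks about 1 in 20 groups by chance where the values are independent. That rate does not apply here, since the arrays are near-duplicates and several are tied at 0. With 5 arrays at 0, any value above 0 gives a share of 1 whatever its size. The near-duplicates of these arrays were both listed at 0.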

How the results depend on the processing

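None of the 5 members passed the adjusted threshold under any alternative that gave it a value (29 to 31 each). PIFI had the lowest adjusted p, 0.105 with the 12 arrays as separate samples in limma, with 0.105 to 0.999 over its alternatives. The directions of CRR21 (0.02 to 0.58), CRR41 (-0.41 to -0.04) and PIFI (-0.74 to -0.10) did not change. NdhS ran from -0.16 to 0.54 and changed sign only without white20 arrays 1 and 2 (-0.16). NdhN ran from -0.78 to 0.11 and changed sign without white20 array 5 (0.11) and without white20 arrays 5 and 6 (0.09). Structural minus other factors ran from -0.22 to 0.37 over 30 alternatives. The filter on the dimmest 25% gives no value for NdhN and CRR41, nor does that on features at 0 throughout a light for CRR41.

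The count of 4 rows past the threshold (1 higher, 3 lower in red200) was 27 on the deposited scale (23 higher, 4 lower), 1 with median scaling, 2 with the pseudocount multiplied by 4, 1 without the dimmest 25%, 1 without features at 0 throughout a light, 1 with a trended and robust prior and 104 with array weights. It was 564 with the 12 arrays as separate samples, 105 with near-duplicates as a random block, and 0 in limma with the replicate block on pair means (645 at an unadjusted p under 0.05), against 826 with it on 12 arrays. The block changed no call of a member. Leaving out 1 array gave 0 to 5 (0 without white20 array 1, 2 without white20 array 5), leaving out 1 pair 0 to 2, and leaving out arrays 5 and 6 of both lights 0 (627 at an unadjusted p under 0.05). The cause of these shifts was not tested. The fits of 12 arrays as separate samples or with the replicate block take near-duplicates as independent, so their p-values are too small. The fit with near-duplicates as a random block allows for their correlation. Signal over background is not known, which limits what the zeros of NdhN and CRR41 can show.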
